A study of Mus musculus with 12 samples.

Results

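The genes described here encode 10 macrophage surface receptors, most of which bind and take up modified lipoproteins, waste molecules or dying cells: Mrc1, Msr1, Marco, Cd36, Scarb1, Stab1, Mertk, Axl, Cd163 and Adgre1. They were taken by symbol from a list chosen with earlier results of these data known, and all 10 were found among the 54532 genes of the deposited expression table. All 10 also reached the level needed for testing, 1 FPKM (fragments per kilobase of exon, scaled for library size) in at least 3 of the 12 libraries, as did 11335 genes in all. Axl and Cd163 reached it only through their macrophage libraries and stayed below 1 FPKM in all 6 osteoclast libraries.

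Scavenger receptors are a functional rather than a sequence family: class A members such as MSR1 and MARCO carry collagen-like stalks, class B members such as CD36 and SR-BI (Scarb1) span the membrane at both ends, and all bind polyanionic or lipid ligands. Efferocytosis is the clearance of apoptotic cells, in which the receptor tyrosine kinases MERTK and AXL recognise exposed phosphatidylserine through bridging proteins, GAS6 for both and protein S for MERTK. Osteoclasts, the multinucleated cells that resorb bone, arise from the same myeloid precursors as macrophages when RANKL is present beside M-CSF. LPS, a component of the outer membrane of Gram-negative bacteria, is sensed by TLR4 on myeloid cells.

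RNA was sequenced from cultured bone marrow cells of wild-type mice. Marrow cells were expanded in CMG, a source of M-CSF, and then kept in 2% CMG without RANKL to give macrophages or with RANKL (100 ng/mL in the sample labels) to give osteoclasts. On day 5, cultures of each kind were left untreated or given 100 ng/mL LPS for 3 h, which made 4 groups of 3 libraries. All 4 groups share the wild-type genotype and the M-CSF source, and no label gives the sex, age or number of mice. The labels do not say whether libraries of a group came from separate mice or cultures, so the p-values measure the spread between these libraries, which may be technical.

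Between 15652992 and 20282965 reads per library were assigned to genes, as recovered from the FPKM steps. The markers of each labelled cell type were present: the summed level of 9 osteoclast markers was 29100 to 32100 FPKM over the osteoclast libraries and 9.21 to 24.4 FPKM over the macrophage libraries. The summed level of 8 macrophage markers was 12800 to 15500 FPKM in macrophages and 2720 to 3550 FPKM in osteoclasts, and they include genes that osteoclasts also express, such as Csf1r (286 to 316 FPKM in osteoclasts). Lyz2 made up most of the macrophage sum, and Cd68 went the other way (1330 to 1450 FPKM in osteoclasts, 635 to 795 FPKM in macrophages). Within the LPS-treated osteoclasts, replicate 2 stood apart with the lowest macrophage-marker sum, and the calls that change when it is left out are given with the replicates. In these bulk samples, fewer macrophages in a culture and less receptor RNA per cell cannot be told apart. FPKM values were scaled by the authors so that the typical gene is level between libraries, and the sum of FPKM therefore ranged from 255852 in an untreated macrophage library to 408994 in an LPS-treated one. Rescaling every library to the same total (TPM) moved the median log2 difference of all tested genes from 0.02 to -0.555 for LPS in macrophages, from 0 to -0.38 for untreated osteoclasts against macrophages, and from -0.01 to 0.51 for the difference between the LPS effects of the cell types. The share of called genes that were higher moved with it, from 52.6% to 18.5%, from 49.9% to 29.9% and from 47% to 82%. For LPS in osteoclasts the median moved from 0.01 to -0.06 and the share from 62.8% to 43.5%.

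Promoter sequences show what lies just upstream of the members whose levels differ most or whose response to LPS is described below. The RefSeq promoter table (GRCm38.p6) gives 250 bases before and 50 bases after the start for 7 of the 10 members: Mrc1, Marco, Cd36, Stab1, Mertk, Axl and Cd163. Msr1, Scarb1 and Adgre1 had no entry. The 7 sequences were searched on both strands for the core of the PU box, GAGGAA, a purine-rich element bound by PU.1 (Spi1), the transcription factor shared by macrophages and osteoclasts. The core was found in 4 of the 7, which are printed 5′ to 3′ on the gene's own strand with each match in capitals (TTCCTC is the core read from the opposite strand). They lie at chr2:14229164-14229463 (plus strand, Mrc1), chr14:31168592-31168891 (minus, Stab1), chr7:25788684-25788983 (minus, Axl) and chr1:120504975-120505274 (minus, Marco).
Mrc1: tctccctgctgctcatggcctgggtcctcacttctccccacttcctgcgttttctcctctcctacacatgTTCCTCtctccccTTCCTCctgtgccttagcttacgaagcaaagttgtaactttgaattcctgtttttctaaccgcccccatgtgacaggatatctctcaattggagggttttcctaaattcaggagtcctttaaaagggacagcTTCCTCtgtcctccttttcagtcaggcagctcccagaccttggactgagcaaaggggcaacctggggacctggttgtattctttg
Stab1: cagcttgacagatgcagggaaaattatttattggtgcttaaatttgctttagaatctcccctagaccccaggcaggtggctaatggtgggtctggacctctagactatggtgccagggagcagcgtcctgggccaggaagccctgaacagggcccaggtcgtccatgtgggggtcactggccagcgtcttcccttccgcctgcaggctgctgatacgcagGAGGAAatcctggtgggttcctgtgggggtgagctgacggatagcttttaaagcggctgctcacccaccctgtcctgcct
Axl: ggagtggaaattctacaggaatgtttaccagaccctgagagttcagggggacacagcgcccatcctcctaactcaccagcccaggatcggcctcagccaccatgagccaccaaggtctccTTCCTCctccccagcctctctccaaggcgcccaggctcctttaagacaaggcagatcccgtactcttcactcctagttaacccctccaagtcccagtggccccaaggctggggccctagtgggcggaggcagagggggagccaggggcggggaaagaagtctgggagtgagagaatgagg
Marco: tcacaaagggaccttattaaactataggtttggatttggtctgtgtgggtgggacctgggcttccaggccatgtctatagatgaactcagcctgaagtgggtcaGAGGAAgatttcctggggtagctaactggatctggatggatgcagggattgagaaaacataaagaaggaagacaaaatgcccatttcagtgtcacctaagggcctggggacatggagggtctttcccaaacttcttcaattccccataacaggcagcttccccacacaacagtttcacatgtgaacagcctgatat
Mrc1, the member with the largest difference between cell types on the log2(FPKM + 1) scale, held 3 matches, whose first bases lie 180, 167 and 35 bases before the start. Stab1 held 1 match 30 bases before the start, Axl 1 at 130 bases and Marco 1 at 146 bases. Of all 32851 promoters of that length in the table, 28.3% held the core. No member promoter held the AP-1 site TGANTCA (7.8% of all promoters), the E-box CACGTG (7.2%) or the interferon response element searched as GAAA, any 2 bases and GAAA (3.4%). A loose NF-kB pattern of 3 G, any 5 bases and 2 C was in 6 of the 7, all but Stab1, and in 50.8% of all promoters. A match is a description of the letters in these windows and no measurement of binding.

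Every member was lower in osteoclasts than in macrophages, in untreated cultures and after LPS. The 10 members summed to 1662 ± 12 FPKM in untreated macrophages and to 108.3 ± 9.36 FPKM in untreated osteoclasts (mean ± SD, n = 3 in these and all later group values). With LPS the sums were 2181 ± 87.0 and 150.1 ± 36.4 FPKM. In the limma fit on log2(FPKM + 1), with Benjamini-Hochberg adjustment over all 11335 genes, 10 of 10 members were called lower in untreated osteoclasts at an adjusted p below 0.05, none was called higher, and their median log2 difference was -3.18 against 0 for all genes. Axl and Cd163 passed the filter through macrophages alone and had to differ, so the count that the filter did not fix is 8 of 8. The background of that comparison is high: 77.8% of tested genes were called, 38.8% higher and 39.0% lower. Libraries of the cell types did not overlap for 10 of 10 members, compared with 81.4% of all tested genes. With LPS, 10 of 10 (8 of 8 without Axl and Cd163) were again called lower (83.9% of tested genes were called, 40.9% higher and 43.0% lower), with a median of -3.42, and libraries did not overlap for 9 of 10 (83.6% of tested genes), the exception being Scarb1, whose call was lost under several settings given with that gene. A log2 difference on this scale understates the change of a gene near or below 1 FPKM, such as Axl or Cd163.

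**Figure D1:**
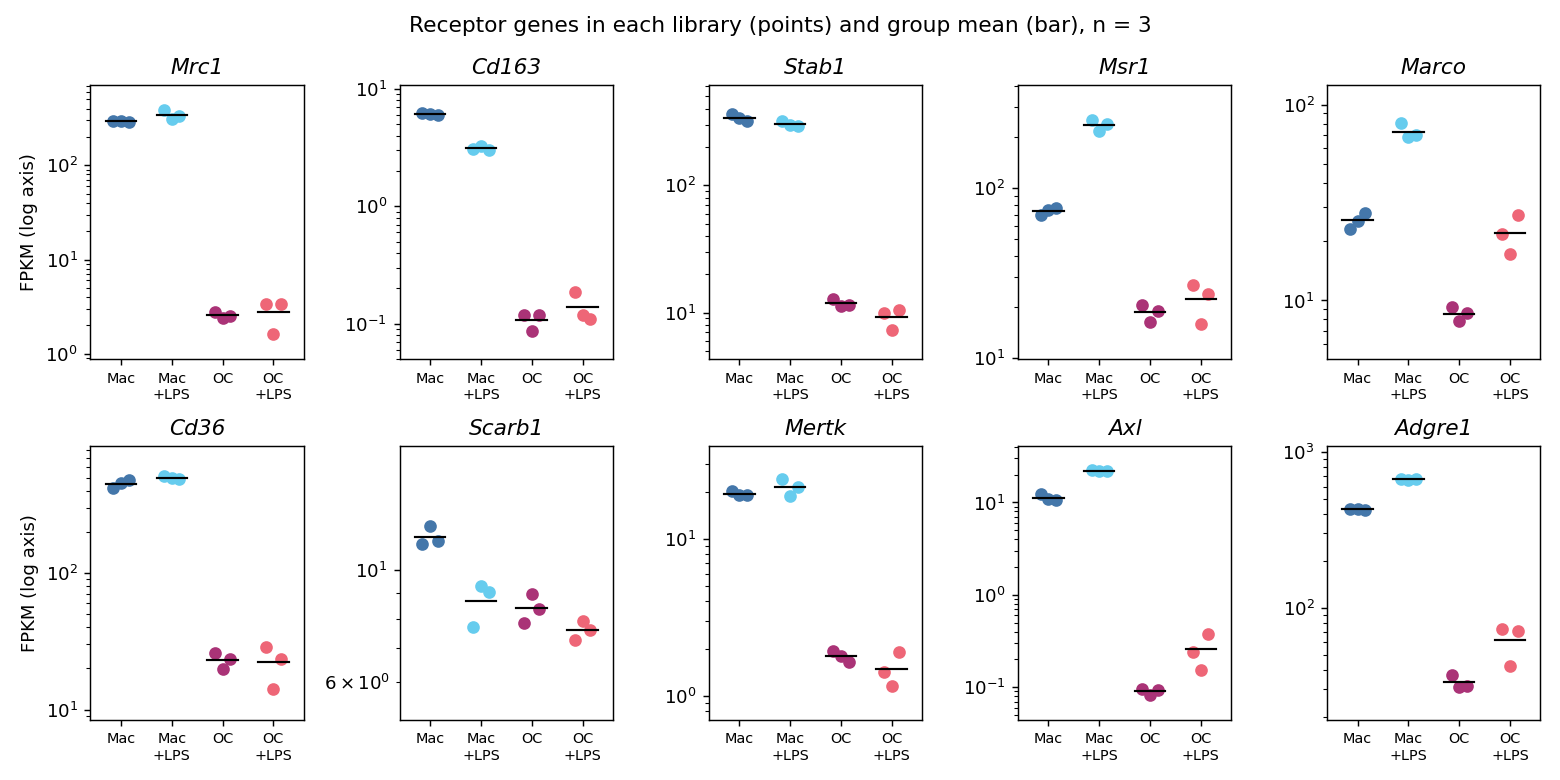
FPKM of the 10 receptor genes in each of the 12 libraries (log axis, 1 panel per gene, each with its own range), with points for libraries and bars for group means (Mac, macrophages; OC, osteoclasts). In untreated cultures every macrophage library lies above every osteoclast library for all 10 genes, for example Mrc1 at 293 against 2.57 FPKM and Scarb1 at 11.6 against 8.4 FPKM.

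The size of the difference ran over a wide range. As a percent of the macrophage mean, untreated osteoclasts held 0.807% for Axl, 0.877% for Mrc1, 1.77% for Cd163, 3.47% for Stab1, 5.12% for Cd36, 7.74% for Adgre1 and 9.22% for Mertk. The class A receptors kept more, 25.4% for Msr1 and 33.5% for Marco, and Scarb1 kept 72.4%. Ranked by log2 difference among the 11335 tested genes, Mrc1 was the third lowest, Stab1 stood at 22 and Cd36 at 43, while Marco stood at 978 and Scarb1 at 3236. The make-up of the set therefore differed between the cells. In untreated macrophages, Cd36 gave 27.2% of the summed receptor FPKM, Adgre1 25.8%, Stab1 20.5% and Mrc1 17.6%. In untreated osteoclasts Adgre1 gave 30.6%, Cd36 21.4%, Msr1 17.2%, Stab1 10.9% and Mrc1 2.38%.

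**Figure D2:**
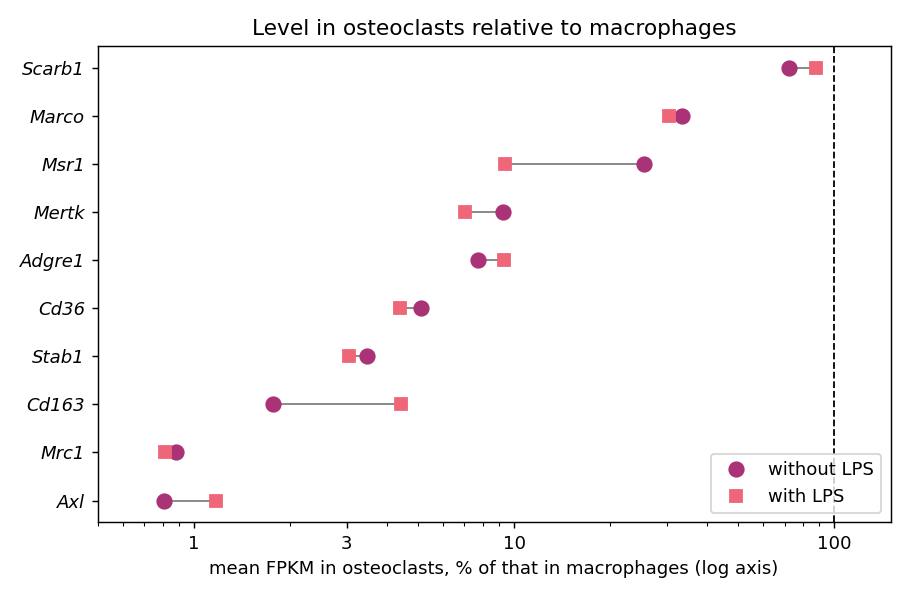
Mean osteoclast FPKM as a percent of the mean macrophage FPKM for each receptor gene (log axis), with circles for untreated cultures, squares for LPS-treated cultures and a dashed line at equal levels. Axl and Mrc1 lie near 1%, Scarb1 lies at 72.4% untreated and 87.6% with LPS, and Msr1 is lower with LPS (9.34%) than without (25.4%).

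Mrc1, Stab1 and Cd163 encode receptors known from tissue-resident and alternatively activated macrophages. Mrc1 (ENSMUSG00000026712, plus strand of chr2:14229392-14332057) encodes the mannose receptor CD206, a C-type lectin that clears mannosylated glycoproteins. Its level in untreated macrophages was 296, 293 and 290.4 FPKM, and with LPS 387, 311 and 330.4 FPKM. Osteoclast libraries held 2.80, 2.39 and 2.53 FPKM untreated and 3.35, 1.62 and 3.41 FPKM with LPS. The cell types lay 114-fold apart untreated with no overlap (log2 difference -6.37, SE 0.16, adjusted p = 4.75e-12 untreated; -6.54, adjusted p = 2.71e-12 with LPS). All 3 LPS-treated macrophage libraries were above all 3 untreated ones, but the log2 difference of 0.22 did not pass the test (adjusted p = 0.247). That macrophage value was called with limma-voom on recovered reads (0.22, adjusted p = 0.0213) and in a fit of only the groups compared (adjusted p = 0.0403), and it turned to -0.58 (adjusted p = 0.00418) under quantile normalisation. In osteoclasts the treated libraries spanned the untreated ones.

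Stab1 (ENSMUSG00000042286, minus strand of chr14:31139013-31168641) encodes stabilin-1, an endocytic receptor for modified lipoproteins, SPARC and phosphatidylserine. It was at 361, 338 and 323 FPKM in untreated macrophages and at 317, 297 and 293 FPKM with LPS. The osteoclast values were 12.8, 11.3 and 11.5 FPKM untreated and 10.0, 7.34 and 10.4 FPKM with LPS. Treated libraries were below untreated ones in both cell types without overlap. The fall passed the test in osteoclasts (log2 difference -0.33, SE 0.10, adjusted p = 0.0404) and not in macrophages (-0.17, adjusted p = 0.151), and the difference of effects did not pass (-0.16, adjusted p = 0.353). The osteoclast call is near the threshold: it was lost on leaving out any of 8 of the 12 libraries (MA untreated replicates 2 and 3, MA LPS replicates 2 and 3, OC untreated replicates 1, 2 and 3, and OC LPS replicate 2, with adjusted p from 0.0509 to 0.131), without the filter (0.114) and in a fit of only the groups compared (0.139). In macrophages the fall was called after rescaling to TPM (-0.82, adjusted p = 1.32e-05), under quantile normalisation (-0.96, adjusted p = 4.08e-06), with voom (-0.17, adjusted p = 0.0236) and in a fit of only the groups compared (adjusted p = 0.0235). The difference of effects turned sign and was called after rescaling to TPM (0.39, adjusted p = 0.0293, beside an all-gene median of 0.51) and under quantile normalisation (0.56, adjusted p = 0.00626). Of the 10288 merged exon bases of Stab1, 112 lie over Nt5dc2 on the opposite strand.

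Cd163 (ENSMUSG00000008845, plus strand of chr6:124304656-124330527) encodes the haptoglobin-haemoglobin receptor. It was the least abundant member in macrophages, at 6.25, 6.07 and 5.97 FPKM untreated and 3.06, 3.29 and 3.00 FPKM with LPS. In osteoclasts it rested on few reads: 12, 8 and 11 reads untreated and 20, 10 and 11 with LPS, or 0.0867 to 0.185 FPKM. In macrophages the ratio of treated to untreated means was 0.511, with no overlap, and the fall was called (log2 difference -0.79, SE 0.06, adjusted p = 9.95e-08). In osteoclasts the groups overlapped (0.04, adjusted p = 0.706). The LPS effects differed between the cell types by 0.82 (SE 0.08, adjusted p = 3.06e-06), and as a ratio of FPKM means with no pseudocount the difference was 1.32 on the log2 scale. After rescaling to TPM it was 1.57 (adjusted p = 8.08e-07), beside an all-gene median of 0.51. Cd163 passed the filter through macrophages alone and lay below 1 FPKM in osteoclasts, where log2(FPKM + 1) leaves little room for a fall. The test therefore cannot decide this difference.

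The class A receptors were the members that rose most with LPS in macrophages. Msr1 (ENSMUSG00000025044, minus strand of chr8:39581685-39642673) encodes the macrophage scavenger receptor that takes up acetylated and oxidised LDL. It stood at 69.5, 74.4 and 76.4 FPKM in untreated macrophages and at 253, 218 and 240.4 FPKM with LPS, a 3.23-fold ratio of means. In osteoclasts it stood at 20.6, 16.4 and 18.9 FPKM untreated and at 26.7, 15.8 and 23.8 FPKM with LPS. The macrophage groups lay apart and the rise was called (log2 difference 1.67, SE 0.15, adjusted p = 7.40e-07), whereas the osteoclast groups overlapped (0.21, adjusted p = 0.382). The LPS effect was smaller in osteoclasts by 1.46 (SE 0.21, adjusted p = 8.89e-05). The difference was -0.89 (adjusted p = 0.00234) after rescaling to TPM and -0.75 (adjusted p = 0.0088) under quantile normalisation. In OC LPS replicate 2, the lowest of its group, Msr1 was below all untreated osteoclast libraries. Without that library the osteoclast rise was called (0.42, adjusted p = 0.00891).

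Marco (ENSMUSG00000026390, minus strand of chr1:120474538-120505024) encodes a class A receptor that binds bacteria and inhaled particles. It was at 23.3, 25.5 and 28.0 FPKM in untreated macrophages and at 80.1, 68.3 and 69.7 FPKM with LPS. In osteoclasts it was at 9.23, 7.90 and 8.59 FPKM untreated and at 21.8, 17.4 and 27.2 FPKM with LPS. Both cell types separated by treatment in all libraries, with ratios of 2.84 in macrophages (log2 difference 1.47, adjusted p = 6.61e-07) and 2.58 in osteoclasts (1.25, SE 0.13, adjusted p = 2.99e-05). The difference between these effects was -0.22 (adjusted p = 0.337) and turned to 0.39 (adjusted p = 0.0926) after rescaling to TPM. On the log2(FPKM + 1) scale Marco had the highest LPS effect of the 10 members in osteoclasts, above 98.4% of all tested genes; by ratio of means Axl (2.85) was higher. LPS-treated osteoclasts were at 22.1 ± 4.90 FPKM beside 25.6 ± 2.35 FPKM in untreated macrophages, with overlapping libraries. Rescaled to TPM, these groups did not overlap, at 49.0 to 76.2 TPM against 90.3 to 109.4 TPM.

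Cd36 and Scarb1, the class B receptors, differed in how far apart the cell types lay. Cd36 (ENSMUSG00000002944, minus strand of chr5:17781690-17888801) encodes a receptor for oxidised LDL, long-chain fatty acids and thrombospondin. It was at 418, 459 and 480.1 FPKM in untreated macrophages and at 513, 501 and 491 FPKM with LPS. In osteoclasts it was at 26.0, 19.9 and 23.6 FPKM untreated and at 28.9, 14.1 and 23.4 FPKM with LPS. The cell types lay 19.5-fold apart untreated (log2 difference -4.23, SE 0.19, adjusted p = 7.48e-10) and 22.7-fold apart with LPS. With LPS neither cell type passed the test (0.15, adjusted p = 0.498 in macrophages; -0.11, adjusted p = 0.743 in osteoclasts). After rescaling to TPM the macrophage value was -0.50 and was called (adjusted p = 0.0293), beside the all-gene median of -0.555, and in a fit of only the groups compared the rise was called (0.15, adjusted p = 0.0415).

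Scarb1 (ENSMUSG00000037936, minus strand of chr5:125277087-125341094) encodes SR-BI, the HDL receptor that moves cholesterol esters across the membrane. Its level was 11.2, 12.2 and 11.4 FPKM in untreated macrophages and 7.71, 9.29 and 9.03 FPKM with LPS. Osteoclast libraries held 7.87, 8.95 and 8.36 FPKM untreated and 7.28, 7.92 and 7.61 FPKM with LPS. It had the narrowest difference between cell types of the members, -0.42 untreated (SE 0.07, adjusted p = 1.04e-04) and -0.17 with LPS (adjusted p = 0.0379), where the libraries overlapped. It fell with LPS in macrophages (-0.38, adjusted p = 2.96e-04) and did not pass in osteoclasts (-0.13, adjusted p = 0.237), and the effects differed by 0.26 (SE 0.10, adjusted p = 0.0382). Both of the last cell-type calls are near the threshold: the difference with LPS was -0.03 (adjusted p = 0.767) after rescaling to TPM and -0.07 (adjusted p = 0.361) under quantile normalisation, and its call was also lost without the filter (adjusted p = 0.0686), in a fit of only the groups compared (0.0765) and on leaving out MA LPS replicate 2 or 3 or OC LPS replicate 1 or 3 (adjusted p from 0.0716 to 0.144). Likewise the call of the difference of effects was lost without the filter (adjusted p = 0.0781) and on leaving out any of 7 libraries (MA untreated replicates 2 and 3, MA LPS replicate 1, OC untreated replicates 1 and 3, OC LPS replicates 2 and 3, with adjusted p from 0.0542 to 0.0918). After rescaling to TPM the difference of effects was 0.83 (adjusted p = 4.92e-05), beside an all-gene median of 0.51.

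Mertk and Axl encode receptor kinases of the TAM family. Mertk (ENSMUSG00000014361, plus strand of chr2:128698956-128802894), the TAM receptor associated with clearance of apoptotic cells by resting macrophages, was at 20.2, 18.9 and 19.1 FPKM in untreated macrophages and 24.0, 18.7 and 21.2 FPKM with LPS. In osteoclasts it was at 1.92, 1.79 and 1.66 FPKM untreated and 1.42, 1.15 and 1.91 FPKM with LPS. The cell types did not overlap (log2 difference -2.87, SE 0.11, adjusted p = 1.28e-10 untreated; -3.16, adjusted p = 3.64e-11 with LPS), and treated and untreated libraries overlapped in both. Neither LPS effect passed the test (0.12, adjusted p = 0.325 in macrophages; -0.17, adjusted p = 0.307 in osteoclasts). The macrophage value was -0.51 (adjusted p = 0.00338) after rescaling to TPM.

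Axl (ENSMUSG00000002602, minus strand of chr7:25757273-25788705) encodes the TAM receptor known for its induction by inflammatory stimuli. It was at 12.4, 10.8 and 10.6 FPKM in untreated macrophages and at 22.2, 22.0 and 22.1 FPKM with LPS, and the rise was called (log2 difference 0.92, SE 0.07, adjusted p = 2.06e-07). In osteoclasts it rested on 9, 7 and 8 reads untreated and 24, 12 and 35 reads with LPS, or 0.0909 ± 0.00764 and 0.259 ± 0.114 FPKM. The osteoclast groups did not overlap either, and their ratio of 2.85 was no smaller than the macrophage ratio of 1.97. On the log2(FPKM + 1) scale the osteoclast difference was 0.20 (adjusted p = 0.0752), and the effects differed by -0.72 (SE 0.10, adjusted p = 7.38e-05). The sign of that difference changed with the scale: with 0.1 in place of 1 the difference of effects was -0.11 (adjusted p = 0.742) and the osteoclast rise was called (0.86, adjusted p = 0.00597), and limma-voom on the recovered reads gave a difference of 0.41 (adjusted p = 0.487). After rescaling to TPM it was 0.10 (adjusted p = 0.608). The summed level of markers of stromal cells and osteoblasts, which also express Axl, moved the same way between the cell types: the 6 markers summed to 26.9 to 37.3 FPKM in untreated and 29.2 to 35.3 FPKM in LPS-treated macrophage libraries, and to 0.613 to 1.52 FPKM in osteoclast libraries. Col1a1 (17.4 to 23.2 FPKM in macrophages) and Col1a2 (6.99 to 10.9 FPKM) made up most of the macrophage sum, Cxcl12 had no reads in osteoclasts, and Runx2 went the other way with LPS (0.639 to 0.818 FPKM in osteoclasts, 0.452 to 0.652 FPKM in macrophages). Their part in the Axl difference was not tested.

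Set against each other within a library, Axl was at 58.0% ± 3.06 of the Mertk level in untreated macrophages and at 105.0% ± 12.8 with LPS. In osteoclasts it was at 5.10% ± 0.526 untreated and at 16.8% ± 3.28 with LPS. The log2 ratio with a pseudocount of 1 was -0.74 ± 0.07, 0.06 ± 0.17, -1.35 ± 0.07 and -0.98 ± 0.09 in the same order. Since Axl passed the filter through macrophages alone, the ratios of the cell types are a description. With LPS the ratio separated from the untreated one without overlap in each cell type, and each comparison gave an exact two-sided permutation p of 0.1 (adjusted over 4 comparisons, 0.1), the smallest that 3 against 3 libraries allow. The ratio rose by 0.80 with LPS in macrophages and by 0.37 in osteoclasts, and with a pseudocount of 0.1 by 0.84 and 1.13. The order of these rises thus turns with the pseudocount, while their direction does not.

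**Figure D3:**
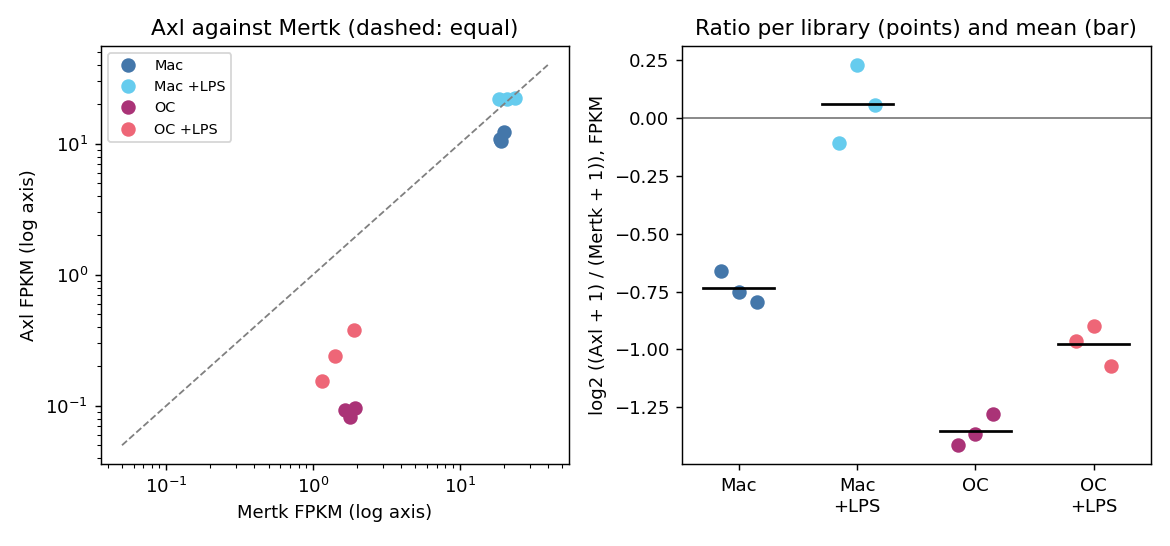
Axl against Mertk FPKM in each library (left, log axes, dashed line at equal levels) and the log2 ratio of (Axl FPKM + 1) to (Mertk FPKM + 1) by group (right, points for libraries and bars for means). The ratio is highest in LPS-treated macrophages (0.06) and lowest in untreated osteoclasts (-1.35), and no treated library overlaps an untreated library of the same cell type.

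Adgre1 (ENSMUSG00000004730, plus strand of chr17:57358691-57483527) encodes F4/80, the adhesion GPCR used as a surface marker of mouse macrophages. It was at 430.0, 431 and 424 FPKM in untreated macrophages and at 673, 665 and 671 FPKM with LPS. The osteoclast values were 37.0, 31.2 and 31.3 FPKM untreated and 73.1, 42.5 and 70.9 FPKM with LPS. Treated libraries were above untreated ones in both cell types, with ratios of 1.56 in macrophages (log2 difference 0.64, SE 0.16, adjusted p = 0.00302) and 1.88 in osteoclasts (0.85, adjusted p = 0.00258). The macrophage rise depended on the scaling: it was -0.003 (adjusted p = 0.992) after rescaling to TPM and -0.325 (adjusted p = 0.0761) after quantile normalisation. The osteoclast rise was 0.79 (adjusted p = 0.00427) after rescaling. The difference of effects was 0.21 and did not pass (adjusted p = 0.454). It was called after rescaling to TPM (0.80, adjusted p = 0.00588, beside an all-gene median of 0.51), under quantile normalisation (1.06, adjusted p = 0.00118) and without OC LPS replicate 2 (0.46, adjusted p = 8.05e-04). Adgre1 was the most abundant member in LPS-treated macrophages and in both osteoclast groups, and in untreated macrophages its libraries overlapped those of Cd36.

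By count, 4 of 10 members rose with LPS in macrophages (Msr1, Marco, Axl and Adgre1) and 2 fell (Cd163 and Scarb1), in a comparison where 69.9% of tested genes were called, 36.8% higher and 33.1% lower. After rescaling to TPM, 5 of these 6 kept their direction and call, at 1.04 for Msr1, 0.85 for Marco, 0.32 for Axl, -1.5 for Cd163 and -1.04 for Scarb1, and Adgre1 lost it. Stab1, Cd36 and Mertk were then called lower too, so that the count was 3 higher and 5 lower, and under quantile normalisation it was 3 higher and 6 lower. Among all called genes, 18.5% were higher after rescaling and 37% under quantile normalisation, against 52.6% as deposited. As deposited, the members' median was 0.19 against 0.02 for all genes, and treated and untreated libraries did not overlap for 9 of 10 (74.0% of tested genes). In osteoclasts 2 of 10 rose (Marco and Adgre1) and 1 fell (Stab1), where 17.7% of tested genes were called, 11.1% higher and 6.59% lower. Libraries did not overlap there for 4 of 10, namely Marco, Stab1, Axl and Adgre1 (34.0% of tested genes). For 4 of 10 members the difference between the LPS effects was called, in a comparison where 56.6% of tested genes were called, 26.6% higher and 30.0% lower. The log2 effect was higher in osteoclasts for Cd163 and Scarb1 and lower for Msr1 and, on the log2(FPKM + 1) scale only, for Axl, whose ratio of means rose more in osteoclasts. Axl and Cd163 passed the filter through macrophages alone and lay below 1 FPKM in osteoclasts, so the test cannot decide for them. Of the other 8 members only Msr1 and Scarb1 were called, and the Scarb1 call was lost under several settings given with that gene. Rescaling to TPM gave 4 members higher and 1 lower in this comparison, and quantile normalisation 5 higher and 2 lower. Among all genes called in it, 82% were higher after rescaling and 59.9% under quantile normalisation, against 47% as deposited.

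**Figure D4:**
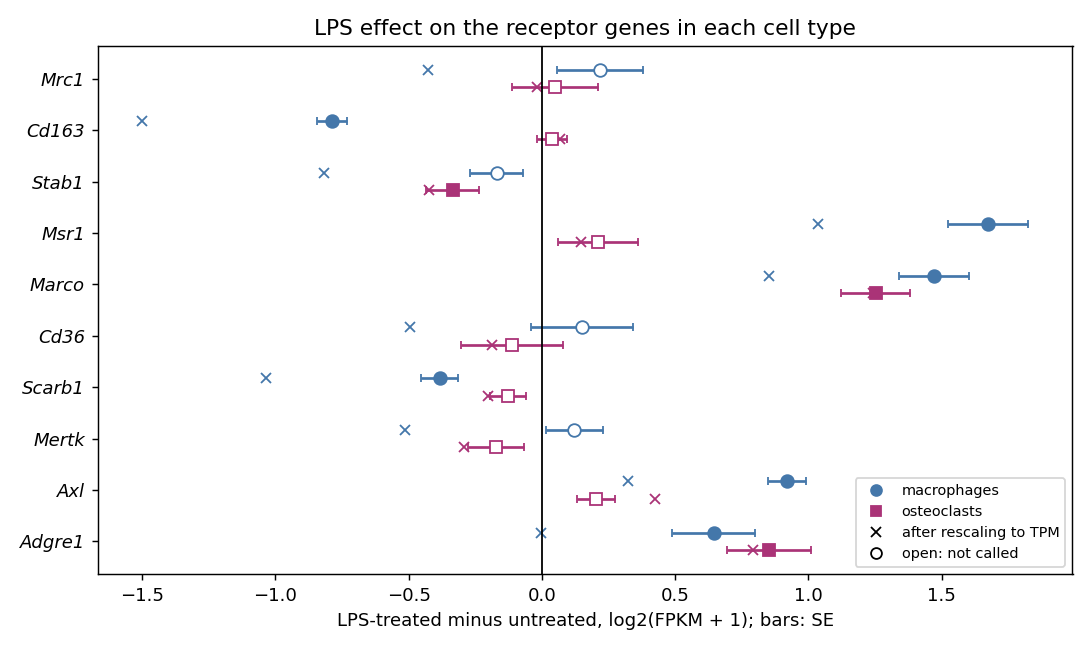
Log2 difference with LPS for each receptor gene in macrophages and in osteoclasts, with filled markers for called genes, open markers for genes not called, bars for the standard error and crosses for the value after rescaling to TPM. Msr1 lies at 1.67 in macrophages and 0.21 in osteoclasts, Marco lies above 1 in both, and the crosses for macrophages lie to the left of their markers.

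Osteoclast replicates differed in a shared way across the members. Among LPS-treated osteoclasts, replicate 2 was the lowest library for 8 of 10 members and the highest only for Scarb1. Its Cd36 level was 14.1 FPKM against 28.9 and 23.4, and its Mrc1 level was 1.62 FPKM against 3.35 and 3.41. The same library was the lowest for 6 of 8 macrophage markers, whose sum was 2719 FPKM against 3546 and 3263, and the highest for 6 of 9 osteoclast markers. Lyz2, the most abundant macrophage marker, was at 927 FPKM there against 1840 and 1590. In untreated osteoclasts replicate 2 was likewise the lowest for 8 of 10 members and for 5 of 8 macrophage markers, and replicate 1 was the highest for 9 of 10 members. Over all tested genes, the deviations of replicate 2 in the treated and untreated osteoclasts had a correlation of 0.083. The part of macrophage-marker RNA in the members' levels was not tested. Leaving out LPS replicate 2 raised the members called with LPS in osteoclasts from 3 to 5: Mrc1 (0.29, adjusted p = 0.0253), Msr1 and Axl (0.26, adjusted p = 0.0259) were gained and Stab1 was lost. Without it, calls were also gained for Mrc1 (0.22, adjusted p = 0.0163) and Stab1 (-0.17, adjusted p = 0.0185) with LPS in macrophages, where the log2 values themselves did not move. For the difference of effects Adgre1 was gained and Scarb1 was lost (0.23, adjusted p = 0.0778). The coefficient of variation in that group was 36.4% for Mrc1, 33.8% for Cd36 and 44.1% for Axl, and 4.2% for Scarb1.

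**Figure D5:**
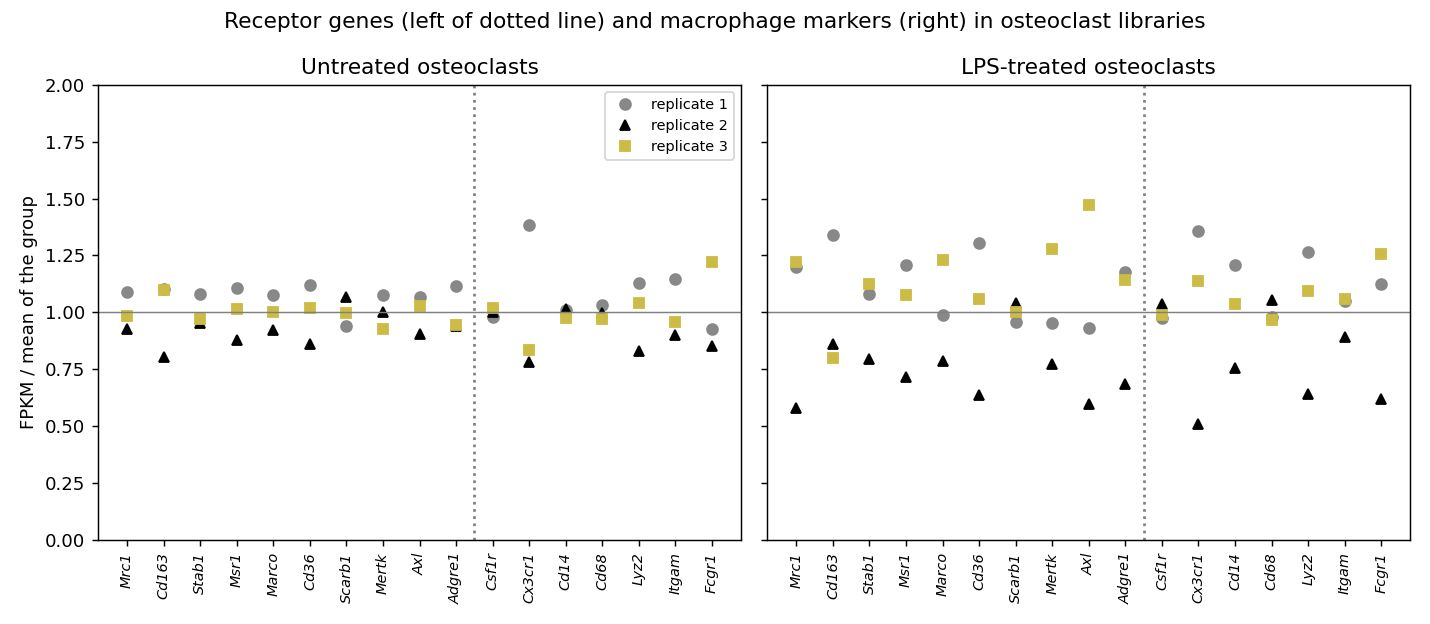
Level of each receptor gene in each osteoclast library divided by the mean of its group, with 1 symbol per replicate, untreated libraries on the left, LPS-treated ones on the right and 7 of the 8 macrophage markers (the other is not shown) beyond the dotted line. In the LPS-treated group replicate 2 lies below the other replicates for 8 of 10 members, with Scarb1 above them.

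The wider uptake machinery was read from 9 lists of 83 related genes, of which 66 were tested; background shares are those given above. Among the genes named, Olr1, Thbs1 and Pparg passed the filter only through macrophage libraries, Cd300lf only through the 3 untreated ones, Edil3 through the 6 osteoclast libraries and 1 macrophage library, and Itgb3 through the 6 osteoclast libraries and 2 macrophage libraries. Such genes had to differ, so beside each count of a cell-type difference in untreated cultures the count over the genes that did not depend on 1 cell type for the filter is given. Counts with LPS in macrophages, and some counts between cell types, depend on the scaling and are given also after rescaling to TPM, an alternative chosen after seeing the data, in which the filter admits a few more genes. Among other scavenger receptors, 6 of 9 tested were lower in untreated osteoclasts and 3 were higher (5 lower and 2 higher of the 7 that did not depend on 1 cell type). Scarf1, an endothelial-type receptor for acetylated LDL, was higher in osteoclasts (21.0 ± 0.456 against 2.40 ± 0.142 FPKM, adjusted p = 4.11e-12). Cxcl16, a membrane-bound chemokine that binds oxidised LDL, was lower (4.73 ± 1.09 against 35.9 ± 0.107 FPKM, adjusted p = 9.91e-09). With LPS, 4 of 9 rose and 1 fell in macrophages (3 rose and 6 fell of 12 after rescaling), and 2 rose in osteoclasts. Olr1, the lectin-like oxidised LDL receptor, had the largest rise, from 1.96 ± 0.0748 to 106.5 ± 1.84 FPKM in macrophages (log2 difference 5.18, adjusted p = 3.66e-13). In osteoclasts it went from 0.0367 ± 0.0223 to 0.474 ± 0.224 FPKM (0.50, adjusted p = 0.00236), and its effects differed by -4.69 (adjusted p = 8.14e-11), or by -2.07 as a log2 ratio of means with no pseudocount. Olr1 passed the filter through macrophages alone and lay below 1 FPKM in osteoclasts, so the test cannot decide this difference.

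Among other receptors for apoptotic cells, 4 of 6 tested were lower in untreated osteoclasts and 2 were higher (3 and 1 of the 4 not dependent on 1 cell type). The integrin subunits Itgb3 and Itgav, which pair as the vitronectin receptor of the osteoclast, were the higher ones: Itgb3 was at 103.2 ± 4.53 against 1.13 ± 0.151 FPKM, and it is also one of the osteoclast markers above. Trem2, a lipid-binding receptor of myeloid cells, was at 10.2 ± 0.435 against 124.8 ± 1.28 FPKM (log2 difference -3.49, adjusted p = 2.82e-10). With LPS in macrophages 1 of 6 rose and 4 fell (1 and 5 of 7 after rescaling). Itgav rose from 46.5 ± 0.72 to 133.1 ± 2.45 FPKM (1.5, adjusted p = 4.09e-12) and Cd300lf, a phosphatidylserine-binding receptor, fell from 1.39 ± 0.244 to 0.319 ± 0.144 FPKM. Cd300lf passed the filter only through the untreated macrophages, so its fall, 1 of the 4 counted, was set by the filter. In osteoclasts 1 of 6 fell, Cd300a, from 3.44 ± 0.241 to 2.24 ± 0.403 FPKM (-0.46, adjusted p = 0.00305).

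Of the bridging molecules and opsonins, 7 of 10 were lower in untreated osteoclasts and 3 were higher (6 and 2 of the 8 not dependent on 1 cell type). The TAM ligands were lower with their receptors: Gas6 was at 93.6 ± 4.82 against 393 ± 15.5 FPKM (-2.06, adjusted p = 2.42e-11) and Pros1, which encodes protein S, at 2.65 ± 0.156 against 18.4 ± 1.03 FPKM (-2.41, adjusted p = 3.64e-12). Gas6 was thus more abundant per length than Axl or Mertk in both cell types. With LPS, Pros1 was at 20.8 ± 0.325 FPKM in macrophages (0.17, adjusted p = 0.0211, a call that is smaller than the shift of all genes between scalings), and Gas6 did not pass in either cell type. Tyro3, the remaining TAM receptor, was too low to test, at 0.143 ± 0.0297 FPKM in untreated and 0.392 ± 0.0675 FPKM in LPS-treated macrophages, with 0, 1 and 0 reads in untreated osteoclasts and 5, 0 and 3 with LPS. Thbs1, a CD36 ligand, was the lowest of the list at 0.238 ± 0.0905 against 45.3 ± 6.38 FPKM (log2 difference -5.22). Edil3, a bridge to integrins, was the highest at 36.9 ± 0.693 against 0.735 ± 0.0495 FPKM (4.45). With LPS 3 of 10 rose and 1 fell in macrophages (1 rose and 8 fell after rescaling), led by Anxa1 (135 ± 8.94 to 374 ± 5.97 FPKM), and 1 rose in osteoclasts, Ccn1 (1.77 ± 0.113 to 3.45 ± 0.418 FPKM).

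Engulfment signalling genes, which connect the receptors to the actin cytoskeleton, were lower in untreated osteoclasts for 9 of 13 tested and higher for 3 (8 and 2 of the 11 not dependent on 1 cell type). Rac2, a haematopoietic small GTPase, was higher (347.5 ± 5.01 against 62.5 ± 0.512 FPKM) and Dock2, a Rac exchange factor, lower (2.72 ± 0.0686 against 26.3 ± 0.757 FPKM). With LPS 10 of 13 rose and 2 fell in macrophages, and 4 rose and 1 fell in osteoclasts. With libraries rescaled to TPM these counts turned to 2 higher and 6 lower in macrophages and 2 higher and 3 lower in osteoclasts. Rhog had the highest log2(FPKM + 1) rise of the list in macrophages, from 143 ± 7.95 to 359 ± 7.02 FPKM (1.32, adjusted p = 2.19e-10). Of 11 genes for cargo lipid handling, 6 were lower and 4 higher in untreated osteoclasts (5 and 4 of the 10 not dependent on 1 cell type; 8 lower and 2 higher of 11 after rescaling to TPM). Pparg, a nuclear receptor for lipid ligands, was at 0.369 ± 0.0808 against 6.78 ± 0.316 FPKM, and Rxra, its partner, fell with LPS in macrophages from 27.4 ± 1.58 to 4.86 ± 0.222 FPKM (adjusted p = 1.60e-11). With LPS 3 of the 11 rose and 6 fell in macrophages (0 rose and 10 fell after rescaling), and 2 fell in osteoclasts.

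Shedding of MERTK, MSR1 and CD163 from the surface is carried out by metalloproteases, chiefly ADAM17, which the iRhom proteins carry to the membrane. The list read here also holds Timp3, which encodes a metalloprotease inhibitor, so its counts do not measure shedding. Of 5 genes in this list 4 were lower in untreated osteoclasts and 1 was higher (3 and 1 of the 4 not dependent on 1 cell type; 4 lower and 0 higher after rescaling to TPM), and with LPS 4 rose and 1 fell in macrophages (3 and 1 after rescaling) and 3 rose in osteoclasts. Adam17 was at 12.2 ± 0.801 FPKM in osteoclasts and 39.2 ± 2.05 FPKM in macrophages (-1.61, adjusted p = 1.03e-09). Rhbdf2, which encodes iRhom2, rose with LPS from 19.9 ± 1.66 to 83.2 ± 2.91 FPKM in macrophages (2.01, adjusted p = 9.17e-12) and from 7.88 ± 0.0527 to 11.8 ± 0.188 FPKM in osteoclasts (0.53, adjusted p = 2.13e-05).

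Among known regulators of the members, 6 of 7 tested were lower in untreated osteoclasts and 1, Spi1, was higher (277.6 ± 8.52 against 129.4 ± 5.02 FPKM, adjusted p = 1.64e-10). Maf, a transcription factor of resident macrophages, was the lowest at 2.31 ± 0.197 against 43.5 ± 0.881 FPKM (-3.75, adjusted p = 1.42e-11). With LPS 4 of 7 rose and 3 fell in macrophages (3 rose and 4 fell of 8 after rescaling), and 2 rose and 2 fell in osteoclasts.

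CD47 on a target cell restrains its uptake. Of 4 genes of the CD47 pathway 2 were lower in untreated osteoclasts and none was higher (4 lower after rescaling to TPM, 3 under quantile normalisation), and in LPS-treated osteoclasts 3 were lower and 1 was higher than in LPS-treated macrophages. Sirpa, the macrophage receptor for CD47, was at 211.5 ± 3.63 against 363 ± 8.30 FPKM (-0.78, adjusted p = 1.59e-09). Cd47 itself was at 20.04 ± 1.14 against 22.0 ± 0.277 FPKM untreated, and with LPS rose to 114.3 ± 1.73 FPKM in macrophages (2.33, adjusted p = 8.95e-13) and to 23.4 ± 1.15 FPKM in osteoclasts (0.21, adjusted p = 0.00688, a call lost under quantile normalisation). Adgre5 (CD97), the only relative of Adgre1 that could be tested of 2 listed, went the other way from it: 60.2 ± 1.16 FPKM in untreated osteoclasts against 5.28 ± 0.35 FPKM in macrophages (3.29, adjusted p = 1.72e-12).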

How the data were processed

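RNA was sequenced in 12 libraries after NEBNext Ultra library preparation, per the labels' protocols. The authors deposited 1 table of FPKM per gene and library. The submitters' processing notes name fastp, STAR, featureCounts and DESeq2 and the build mm10. Strand use and the annotation are not given in the sources used here, so genes overlapping on opposite strands cannot be told apart; this touches Stab1, Gas6, Cxcl16, Itgav, Thbs1, Dock2, Adam17, Maf and Adgre5. Adgrb1 shares exon bases with a predicted gene on the same strand. Results for some genes of these lists are not reported here. Whole reads were recovered from FPKM steps for 100.0% of the 25854 genes above 0 (within 0.02 of a read), with exon lengths that matched the mm10 (GRCm38) annotation for 96.7%. The recovered denominators departed by at most 0.0096% from median-of-ratios scaling, a property inferred from the values.

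Values were tested as log2(FPKM + 1) with limma 3.58.1 in R 4.3.3: 1 trended fit of 4 group means over 12 libraries, for the 11335 genes at 1 FPKM or more in at least 3 libraries, two-sided, with Benjamini-Hochberg adjustment over all of them and calls below 0.05. The interaction subtracts the macrophage LPS effect from the osteoclast one. The fit was tested on simulated data. Replicate numbers were not used as a block: the labels give no shared source, and over all tested genes the deviations of same-numbered libraries had correlations of -0.07 to 0.104 over 18 pairs. No batch is given in the labels. The members and the related lists were chosen with earlier results of these data known. All members were described; from each related list, the called genes with the highest and lowest log2 difference in a comparison could be named, together with Gas6, Pros1 and Tyro3. Alternatives were the pseudocount, the filter, TPM and quantile scaling, limma-voom on recovered reads, a fit to only the groups compared, a replicate block and leaving out each library. Markers of dendritic cells, neutrophils, B cells, T cells, erythroid, endothelial and mast cells were checked too: no list summed to more than 16.0 FPKM in any library, and megakaryocyte markers were led by Pf4, with list sums of 593 to 924 FPKM in macrophages and 8.24 to 19.4 FPKM in osteoclasts.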

Additional observations from a re-analysis of the deposited data

Results flagged for a closer look

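The difference between the LPS effects of the cell types passed the test for 4 of the 10 receptor genes, in a comparison where 56.6% of tested genes passed. Axl and Cd163 passed the filter through macrophages alone and lay below 1 FPKM in osteoclasts, so the test cannot decide for them. Of the other 8 genes only Msr1 and Scarb1 passed. The osteoclast effect less the macrophage effect (log2) was -1.46 for Msr1, which rose in macrophages. It was -0.89 for Msr1 after rescaling to TPM and -0.75 under quantile normalisation. It was 0.82 for Cd163 (1.57 after rescaling) and 0.26 for Scarb1 (0.83 after rescaling), beside an all-gene median of 0.51 after rescaling. Both genes fell in macrophages, and the Scarb1 call was lost without the filter and on leaving out any of 7 libraries. The value was -0.72 for Axl, which rose in macrophages, and its sign turned under limma-voom with recovered reads (0.41) and after rescaling to TPM (0.10).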

How the results depend on the processing

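Across 19 alternative settings, 866 of 940 values of the members kept their direction and their side of the threshold, and 27 turned direction. Of the values that kept their direction, 27 lost and 20 gained the call. Some of the values that turned also lost or gained the call and are not in these last counts. The count of members lower in untreated osteoclasts was 10 under every setting, and with LPS it was 9 to 10. Leaving out 1 library at a time gave 6 to 8 members called with LPS in macrophages, 2 to 5 with LPS in osteoclasts (5 without OC LPS replicate 2) and 3 to 5 for the interaction; the other settings gave 6 to 9, 2 to 4 and 3 to 7, the last under quantile normalisation. With LPS in macrophages, rescaling to TPM gave -0.43 for Mrc1, -0.50 for Cd36, -0.51 for Mertk and -0.003 for Adgre1, and quantile normalisation gave -0.58, -0.77, -0.285 and -0.325 for the same genes. With LPS in osteoclasts, Mrc1 was -0.017 after TPM rescaling and Cd163 was -0.033 after quantile normalisation. Leaving out 1 library at a time gave -0.081 to 0.294 for Mrc1 and -0.326 to 0.167 for Cd36, negative for Mrc1 without OC LPS replicate 1 or 3 and positive for Cd36 without OC LPS replicate 2. For the interaction, TPM gave 0.41 for Mrc1, 0.39 for Marco, 0.31 for Cd36, 0.39 for Stab1 (called), 0.22 for Mertk and 0.10 for Axl, beside an all-gene median of 0.51. Quantile normalisation gave 0.61 for Mrc1 (called), 0.31 for Marco, 0.59 for Cd36, 0.56 for Stab1 (called) and 0.10 for Mertk. Voom gave 0.41 for Axl, and leaving out 1 library gave -0.3 to 0.076 for Mrc1 and -0.477 to 0.016 for Cd36, positive for both without OC LPS replicate 2. The cause was not tested. Counts of the related lists were rescaled too, an alternative chosen after seeing the data. With a replicate block, 10, 10, 6, 3 and 4 members were called in the 5 comparisons, as without it; the samples share only a number, and same-number correlations were -0.07 to 0.104. Depth limits the osteoclast values of Axl and Cd163, which rest on 7 to 35 reads.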

Other observations

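Receptors for phosphatidylserine outside the 10 genes that were too low to test differed in which cells had reads; they were chosen after their values were seen. Adgrb1 (BAI1) had 71, 66 and 81 reads in untreated osteoclasts (0.578 ± 0.0712 FPKM) and 109, 88 and 99 with LPS, and no reads in any macrophage library. Against a floor of 3 reads per library, its untreated level was at least 32.0-fold higher in osteoclasts. Timd4 (TIM-4) had 13, 10 and 15 reads in LPS-treated macrophages (0.423 ± 0.0997 FPKM) and none in untreated macrophages, a level at least 7.04-fold higher by the same floor.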
